A study of Mus musculus with 8 samples.

Results

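Elastic fibres give the walls of vessels, valves and heart chambers their recoil. Their core is cross-linked elastin, laid down on a scaffold of fibrillin microfibrils, and a set of fibulins, microfibril-associated glycoproteins and emilins links core, scaffold and cells. In the heart these proteins are made mainly by fibroblasts and by cells of the vessel wall. The 10 genes examined here were the rows of the gene table whose symbol was Eln (elastin), Fbn1 (fibrillin-1), Fbln1, Fbln2 and Fbln5 (fibulin-1, fibulin-2 and fibulin-5), Efemp1 and Efemp2 (fibulin-3 and fibulin-4), Mfap4 and Mfap5 (microfibril-associated proteins) or Emilin1. All 10 were found among 23045 listed genes, and all 10 were among the 20313 that entered the test.

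RNA-seq of mouse hearts compared 4 WT libraries (Mettl3lox/lox) with 4 Mettl3 KO libraries (Mettl3lox/lox:alphaMHC-MerCreMerpos). METTL3 is the methyltransferase that places m6A on RNA, and the study made these libraries to look at the use of polyA sites. Gene-level expression of the elastic fibre genes is described here. Both groups carried loxP-flanked Mettl3, and per the study's methods both received tamoxifen by intraperitoneal injection on 7 consecutive days (100 µg per g of body weight) at 10 to 16 weeks of age. MerCreMer is a tamoxifen-activated Cre made in cardiomyocytes under the alpha-myosin heavy chain promoter. The deletion is thus aimed at cardiomyocytes and not at fibroblasts or vessel wall cells, although Mettl3 was not measured here by cell type. The WT mice lacked the transgene, so effects of Cre and of Mettl3 loss cannot be told apart. The time from injection to sampling is not given in the sources used here, and sex was not considered in the study's design.

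The values are normalized read counts, which summed to 2839589 to 2916986 per library. Spacing of the low values put the reads behind them at about 2631000 to 3063000 per library. Mettl3 was at 105 to 133 in WT and 68 to 78 in Mettl3 KO hearts, 62.4% of the WT mean, and Esr1, part of which is in the transgene, at 13 to 20 and 693 to 851, as the labels require. Cardiomyocyte markers were abundant in every library (Myh6 at 4882 to 5613). The labels give the tissue as heart and not which chambers were taken. The atrial markers Myl7 and Bmp10 were at 0 to 26 and at 0 in the WT libraries. In the Mettl3 KO libraries they were at 23 to 119 and at 0 to 358. Nothing in the labels beyond the sample names states that the libraries of a group came from separate mice, and if some did not, the p-values measure technical spread in part.

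Of the 10 genes, 5 rose in Mettl3 KO hearts (Eln, Fbln1, Fbln5, Mfap4 and Mfap5), 0 fell (also at an unadjusted p under 0.05 and by limma voom), and 5 did not pass the test (Fbn1, Fbln2, Efemp1, Efemp2 and Emilin1). A gene was called at a limma adjusted p under 0.05 over all genes tested. Across all genes 7.91% were called, 4.72% as higher and 3.19% as lower. The median log2 fold change was 0.24 over the 10 genes and -0.01 over all genes tested. Together the 10 genes made up 0.0880% to 0.102% of the normalized read counts of the WT libraries and 0.102% to 0.111% of those of the Mettl3 KO libraries, ranges that overlap, since WT replicate 1 (a sum of 2912) lay above Mettl3 KO replicate 2 (2906). The count of calls depends on 2 alternatives described further on. With the atrial marker mean as covariate 2 of the 10 genes were higher and 0 lower, where 536 and 321 of all 20313 genes were. Against the fibroblast marker mean 3 were higher and 3 lower, where 1.17% and 38.2% of all genes were. Of the markers themselves, 7 of 9 listed for fibroblasts and 5 of 6 listed for atria were higher in Mettl3 KO hearts. The atrial ones include Nppa and Pam, which were also high in Mettl3 KO replicate 1, where Bmp10 was not counted.

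**Figure D1:**
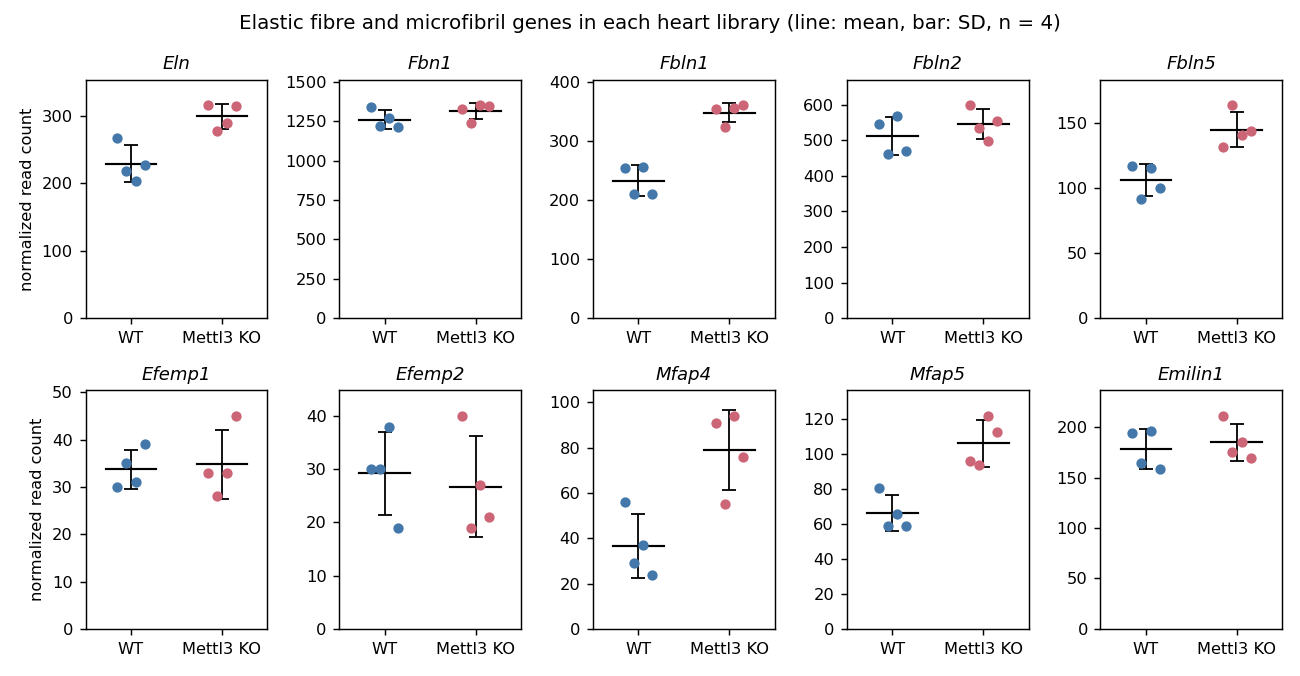
Normalized read count (y axis, from 0) of each of the 10 genes in the 4 WT (blue) and 4 Mettl3 KO (red) libraries, with a line at the mean and a bar of 1 SD. Eln, Fbln1, Fbln5 and Mfap5 have all Mettl3 KO points above all WT points, Mfap4 overlaps by 1 WT point at 56, and the other 5 genes overlap widely.

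Promoter sequences are shown for 2 fibulins that rose and for fibrillin-1, which did not pass the test. RefSeq promoters (GRCm38.p6, 250 bases before to 50 after a transcript start) matched 7 of the 10 genes, with 11 promoters in all, several of which overlap or belong to 1 gene. No promoter was matched for Eln, Mfap4 or Mfap5, which rose, so Fbln1 and Fbln5 are the only genes that rose with a promoter here. The outermost start of each gene is printed 5′ to 3′ along its own strand, at chr15:85205699-85205998 (plus strand) for Fbln1, chr12:101819070-101819369 (minus strand) for Fbln5 and chr2:125506389-125506688 (minus strand) for Fbn1. Capitals mark matches on either strand to a GC box (GGGCGG) or a SMAD box (CAGAC).
Fbln1: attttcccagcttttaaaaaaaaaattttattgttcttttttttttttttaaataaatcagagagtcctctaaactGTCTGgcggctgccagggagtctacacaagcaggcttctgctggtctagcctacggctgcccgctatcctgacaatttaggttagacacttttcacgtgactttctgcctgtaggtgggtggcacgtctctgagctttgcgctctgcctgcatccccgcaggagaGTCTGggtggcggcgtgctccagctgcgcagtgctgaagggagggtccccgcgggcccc
Fbln5: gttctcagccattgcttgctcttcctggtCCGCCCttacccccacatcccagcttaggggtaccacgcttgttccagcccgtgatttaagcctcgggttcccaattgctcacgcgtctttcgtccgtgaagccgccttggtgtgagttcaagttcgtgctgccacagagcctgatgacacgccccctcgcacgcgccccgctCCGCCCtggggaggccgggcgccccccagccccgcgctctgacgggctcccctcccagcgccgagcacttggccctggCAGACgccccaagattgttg
Fbn1: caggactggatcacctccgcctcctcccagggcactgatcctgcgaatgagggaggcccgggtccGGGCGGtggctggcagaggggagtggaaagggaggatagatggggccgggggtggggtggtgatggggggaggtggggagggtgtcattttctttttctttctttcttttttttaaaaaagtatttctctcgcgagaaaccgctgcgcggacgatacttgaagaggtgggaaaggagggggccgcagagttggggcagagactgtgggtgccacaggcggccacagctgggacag

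In these windows Fbln1 held 2 SMAD boxes, at -174 and -9 from the start site, and no GC box. Fbln5 held 1 SMAD box at 31 within the transcript and GC boxes at -221 and -48. Fbn1 held 1 GC box at -185 and no SMAD box. The motifs depend on the start chosen. At the other Fbln1 start (chr15:85205758-85206057) there were GC boxes at -11 and 12 and SMAD boxes at -233 and -68. At the other Fbln5 start (chr12:101818435-101818734) there were SMAD boxes at -199 and -15 and no GC box. Over the 11 promoters, a GC box occurred in 8 and a SMAD box in 7, against 35.7% and 49.6% of all 32851 promoters. Among genes that did not pass the test, Efemp1, Efemp2 and Emilin1 also had a promoter with a SMAD box, and Fbln2 did not. An AP-1 motif (TGANTCA) occurred in 1, that of Efemp1, against 7.81% of all promoters. The TEAD motif (GGAATG) and the TATA box (TATAAA) occurred in 0 of 11, against 14.7% and 13.6%. These are matches of letters and describe no binding.

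Elastin itself, the elastic core protein, was higher in Mettl3 KO hearts. Eln lies on the minus strand of chromosome 5 (mm39 134731447 to 134776177, ENSMUSG00000029675). WT hearts gave 267, 219, 204 and 228 normalized read counts and Mettl3 KO hearts 316, 278, 289 and 315. Every Mettl3 KO library was above every WT library, with WT replicate 1 the closest. The means were 229.5 ± 26.9 and 299.5 ± 19.0 (SD, n = 4 each), 30.5% higher in Mettl3 KO hearts. The log2 fold change was 0.39 (95% interval 0.23 to 0.55, SE 0.08, limma adjusted p = 0.00206). With the fibroblast marker mean as reference (0.08, limma adjusted p = 0.448) or the atrial marker mean as covariate (0.32, limma adjusted p = 0.154), both described further on, Eln did not pass. Groups without overlap were seen for 11.5% of all genes tested, and with the Mettl3 KO values on top for 6.46%. Among the 10 genes this held for 4.

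Of the 5 fibulins, 2 rose. Fibulin-1, a calcium-binding glycoprotein found in elastic fibres and basement membranes, had the smallest p of the set. Fbln1 lies on the plus strand of chromosome 15 (mm39 85090150 to 85170736, ENSMUSG00000006369). WT hearts gave 254, 210, 257 and 210 normalized read counts and Mettl3 KO hearts 354, 324, 356 and 361. Every Mettl3 KO library lay above every WT library. It rose from 232.8 ± 26.3 to 348.8 ± 16.8 (SD, n = 4 each), a log2 fold change of 0.59 (95% interval 0.44 to 0.74, SE 0.07, limma adjusted p = 1.65e-05), and 0.28 against the fibroblast marker mean (limma adjusted p = 0.00375). The gene has alternative 3′ exons for its C and D forms, which a gene-level count sums.

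Fibulin-5 tethers elastin to microfibrils and to cell surface integrins and also binds lysyl oxidase-like 1. Fbln5 lies on the minus strand of chromosome 12 (mm39 101712824 to 101785314, ENSMUSG00000021186). WT hearts gave 117, 92, 116 and 100 normalized read counts and Mettl3 KO hearts 132, 164, 141 and 144. The groups did not overlap, although WT replicate 1 and Mettl3 KO replicate 1 came near each other. Means were 106.3 ± 12.3 and 145.3 ± 13.5 (SD, n = 4 each), with a log2 fold change of 0.45 (95% interval 0.25 to 0.65, SE 0.10, limma adjusted p = 0.00447). Like Eln, it did not pass against the fibroblast marker mean (0.14, limma adjusted p = 0.278) or with the atrial covariate (0.41, limma adjusted p = 0.170).

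Fibulin-2, which sits where the elastin core meets the microfibrils, did not pass. Fbln2 lies on the plus strand of chromosome 6 (mm39 91189437 to 91249522, ENSMUSG00000064080). WT hearts gave 545, 461, 568 and 471 normalized read counts and Mettl3 KO hearts 598, 533, 497 and 554. The groups overlapped over most of their range. The log2 fold change was 0.10 (limma adjusted p = 0.472, SE 0.07), and its 95% interval of -0.04 to 0.24 allows a change from 0.971-fold to 1.18-fold.

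The fibulin-3 and fibulin-4 genes had few reads and gave wide intervals. Efemp1, the fibulin-3 gene, lies on the plus strand of chromosome 11 (mm39 28803204 to 28876743, ENSMUSG00000020467). WT hearts gave 30, 35, 31 and 39 normalized read counts and Mettl3 KO hearts 33, 28, 33 and 45. Its log2 fold change of 0.03 had a 95% interval of -0.33 to 0.39 (limma adjusted p = 0.958). Efemp2, whose product fibulin-4 brings lysyl oxidase to elastin, lies on the plus strand of chromosome 19 (mm39 5523982 to 5532545, ENSMUSG00000024909). WT hearts gave 30, 30, 38 and 19 normalized read counts and Mettl3 KO hearts 40, 19, 27 and 21. Its log2 fold change was -0.14 (95% interval -0.63 to 0.34, limma adjusted p = 0.810), which allows a change from 0.647-fold to 1.27-fold. Counting error alone gives a coefficient of variation of 17.2% and 18.5% at the WT means of Efemp1 and Efemp2, where 12.2% and 26.7% were measured. At the Mettl3 KO means it gives 17% and 19.3%, where 20.8% and 35.4% were measured.

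Among the microfibril proteins, both microfibril-associated genes rose and fibrillin-1 did not pass. Mfap4 encodes a fibrinogen-domain protein that binds elastin, collagen and fibrillin. Mfap4 lies on the plus strand of chromosome 11 (mm39 61376257 to 61379726, ENSMUSG00000042436). WT hearts gave 56, 29, 37 and 24 normalized read counts and Mettl3 KO hearts 91, 55, 94 and 76. WT replicate 1 lay just above Mettl3 KO replicate 2, which is the only overlap. It had the largest fold change of the 10 genes, from 36.5 ± 14.1 to 79.0 ± 17.8 (SD, n = 4 each), or 2.16-fold. The log2 fold change was 1.13 (95% interval 0.71 to 1.56, SE 0.20, limma adjusted p = 0.000878).

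Mfap5, also called MAGP-2, is a small glycoprotein that binds fibrillins. Mfap5 lies on the plus strand of chromosome 6 (mm39 122482804 to 122506249, ENSMUSG00000030116). WT hearts gave 81, 59, 66 and 59 normalized read counts and Mettl3 KO hearts 96, 94, 122 and 113. WT replicate 1 was again the highest WT library, and the groups did not overlap. Means were 66.3 ± 10.4 and 106.3 ± 13.5 (SD, n = 4 each), a log2 fold change of 0.68 (95% interval 0.43 to 0.93, SE 0.12, limma adjusted p = 0.000802). The value was 0.37 against the fibroblast marker mean (limma adjusted p = 0.0153), and with the atrial covariate it did not pass (0.52, limma adjusted p = 0.151).

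Fibrillin-1, the backbone of the microfibril, had the smallest SE of the 10 genes. Fbn1 lies on the minus strand of chromosome 2 (mm39 125142514 to 125349913, ENSMUSG00000027204). WT hearts gave 1338, 1218, 1271 and 1214 normalized read counts and Mettl3 KO hearts 1326, 1236, 1351 and 1344. The groups overlapped over most of their range. The log2 fold change was 0.06 (95% interval -0.03 to 0.15, SE 0.04, limma adjusted p = 0.474), an interval whose upper end is a fold of 1.11. Emilin1, a glycoprotein at the surface of the elastin core that restrains TGF-beta maturation, lies on the plus strand of chromosome 5 (mm39 31070746 to 31078621, ENSMUSG00000029163). WT hearts gave 194, 164, 196 and 158 normalized read counts and Mettl3 KO hearts 211, 175, 185 and 169. Its log2 fold change of 0.06 (95% interval -0.12 to 0.24, SE 0.09, limma adjusted p = 0.796) did not pass either.

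To ask whether the genes differed among themselves, each was set against Fbn1 within a library, a measure that no scaling of libraries can move and that was chosen after the values were seen. The Eln to Fbn1 ratio was 16.1% to 20% in WT and 21.4% to 23.8% in Mettl3 KO libraries. For Fbln1 the ratio went from 17.2% to 20.2% in WT to 26.2% to 26.9% in Mettl3 KO libraries. The ratios of Fbln5, Mfap4 and Mfap5 to Fbn1 were likewise higher in every Mettl3 KO library than in any WT library, by 0.39, 1.1 and 0.62 on the log2 scale. Each of these 5 ratios had a two-sided exact permutation p = 0.0286, the smallest that 4 against 4 libraries can give. Their adjusted p = 0.0515 over the 9 ratios does not pass. It is the lowest value that 5 of 9 ratios at this floor can give, so the adjusted p decides nothing here. The ratios of Fbln2, Efemp1, Efemp2 and Emilin1 to Fbn1 overlapped between the groups (exact permutation p from 0.486 to 0.971, adjusted p from 0.729 to 0.971).

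Levels were compared between genes only after division by exon length (merged exons of GENCODE M21, an annotation of an earlier build, matched by gene identifier). Per kb of exon, WT hearts held most Fbn1 (100.1 to 110.3 normalized read counts per kb), then Fbln2 (72.4 to 89.2), Fbln1 (48.1 to 58.8) and Emilin1 (32.0 to 39.7). These 4 did not overlap with each other. Eln (25.2 to 33.0) overlapped with Emilin1 above and with Mfap4 (12.5 to 29.1) below it, and Mfap4 overlapped with Mfap5 (16.4 to 22.6), Efemp1 (14.7 to 19.1) and Fbln5 (13.3 to 16.9). Efemp2 was lowest (5.02 to 10.03). In Mettl3 KO hearts Fbln1 (74.2 to 82.6 per kb) overlapped with Fbln2 (78.0 to 93.9), which it did not in WT hearts. Mfap4 (28.6 to 48.9) overlapped with Eln (34.3 to 39.0) as in WT hearts, and also with Emilin1 (34.2 to 42.7), from which it was apart in WT hearts. The order depends on the length used. Per kb of the longest annotated transcript, a choice made after seeing the data, Eln (53.0 to 69.3 in WT) lay above Emilin1 (41.0 to 50.9) and overlapped with Fbln1 (57.4 to 70.2), and Fbln2 (96.3 to 118.7) overlapped with Fbn1 (101.4 to 111.8). On that scale Fbln1 (88.5 to 98.7) and Fbln2 (103.8 to 125.0) did not overlap in Mettl3 KO hearts, nor did Mfap4 and Eln in either group, while Efemp2 was lowest by its mean on both.

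**Figure D2:**
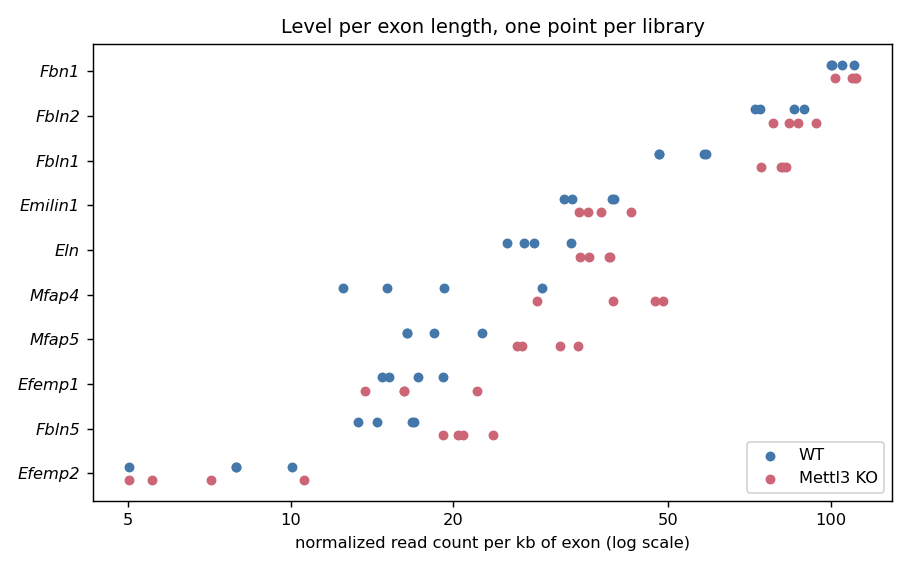
Normalized read count per kb of merged exon (x axis, log scale) of the 10 genes, ordered by their WT mean, with 1 point per WT (blue) and Mettl3 KO (red) library. Fbn1 is highest at 100.1 to 111.4 over all libraries and Efemp2 lowest at 5.02 to 10.6, while Fbln1, Eln, Mfap4, Mfap5 and Fbln5 lie further right in Mettl3 KO hearts.

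The gene closest to Eln in its pattern was Loxl1, the lysyl oxidase that acts in elastic fibre upkeep. By root mean square distance over the 8 libraries between centred log2 profiles, compared with 12027 genes of mean value 20 or more, Loxl1 lay at 0.0691, Plagl1 at 0.0697 and Ercc4 at 0.0701. For Fbn1 the nearest were Sccpdh at 0.0161, Perp at 0.0266 and Prdm4 at 0.0278. The Loxl1 values were 118, 104, 100 and 105 in WT hearts and 139, 138, 146 and 149 in Mettl3 KO hearts, without overlap. Plagl1 and Ercc4 lay nearly as close.

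Beyond the 10 genes, 35 further genes of elastic fibre assembly and turnover were listed in 6 subgroups, and 32 were tested. Of these, 10 rose and 1 fell, against 4.72% and 3.19% of all genes, and their median log2 fold change was 0.17. Against the fibroblast marker mean described further on, 4 were higher and 8 lower, where 1.17% and 38.2% of all genes were. With the atrial marker mean as covariate, 5 were higher and 0 lower, among 857 genes called in all. Cela1, at 0 to 2 in each library, was below the filter, and Emilin3 and Elane were not tested.

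Among cross-linking enzymes, lysyl oxidases oxidise lysines of elastin and collagen. Of 5, Lox and Loxl1 rose. Lox gave 29, 31, 36 and 31 in WT hearts and 81, 62, 75 and 73 in Mettl3 KO hearts, a log2 fold change of 1.17 (limma adjusted p = 8.12e-06, SE 0.14). Loxl1 rose by 0.42 (limma adjusted p = 0.00257, SE 0.08), a call that ended against the fibroblast marker mean (0.11, limma adjusted p = 0.368) and with the atrial marker mean as covariate (0.31, limma adjusted p = 0.248). Loxl2, with the most reads of the family at 145 to 179 over all libraries, changed by 0.02 (limma adjusted p = 0.926).

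Latent TGF-beta binding proteins share the domain structure of fibrillins, and most of them hold latent TGF-beta in the matrix. Of 4, only Ltbp2 passed the test, whose product does not bind latent TGF-beta and is a microfibril protein that binds fibrillin-1 and fibulin-5. It gave 21, 16, 9 and 15 in WT hearts and 93, 48, 125 and 113 in Mettl3 KO hearts, a log2 fold change of 2.53 (limma adjusted p = 9.00e-07, SE 0.25). Ltbp4, with the most reads, was at 676 to 718 in WT and 668 to 770 in Mettl3 KO libraries (log2 fold change 0.08, limma adjusted p = 0.420).

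Of 3 microfibril partners, Fbn2, the fibrillin known mainly from development, rose from 70, 83, 62 and 73 to 118, 82, 100 and 124 (log2 fold change 0.54, limma adjusted p = 0.00821, SE 0.13), with Mettl3 KO replicate 2 inside the WT range. It did not pass without Mettl3 KO replicate 4 (0.46, limma adjusted p = 0.0545), against the fibroblast marker mean (0.24, limma adjusted p = 0.154) or with the atrial covariate (0.52, limma adjusted p = 0.184). Tnxb, the tenascin-X gene and the one with the most reads here, changed by 0.07 (limma adjusted p = 0.512).

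The 6 tested relatives of fibulins and emilins moved in both directions. Fbln7 (fibulin-7) gave 3, 2, 5 and 1 in WT hearts and 23, 10, 12 and 13 in Mettl3 KO hearts (log2 fold change 2.10, limma adjusted p = 0.00102, SE 0.38), and its WT values are too low for a firm fold. Mmrn1 (multimerin-1) rose by 0.51 (limma adjusted p = 0.00663, SE 0.12), but did not pass against the fibroblast marker mean (0.20, limma adjusted p = 0.179) or with the atrial covariate (0.37, limma adjusted p = 0.319). The hemicentins are very large proteins related to fibulins. Hmcn1 was higher by 0.24 (limma adjusted p = 0.0237) and Hmcn2 fell by 0.35 on the log2 scale (limma adjusted p = 0.0195), with 490, 336, 412 and 354 in WT hearts and 296, 316, 273 and 353 in Mettl3 KO hearts. Both calls were lost when single libraries were left out. For Hmcn1 these were each library except WT replicate 4 and Mettl3 KO replicate 1 (limma adjusted p up to 0.137), and for Hmcn2 they were WT replicates 1 and 3 and Mettl3 KO replicates 2 and 3 (limma adjusted p up to 0.113). Hmcn1 turned sign against the fibroblast marker mean (-0.07, limma adjusted p = 0.505) and with the atrial covariate (-0.04, limma adjusted p = 0.871). Hmcn2 also missed the threshold with the atrial covariate (-0.43, limma adjusted p = 0.109) and with the replicate number as a block (limma adjusted p = 0.0533).

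Among 8 ADAMTS family genes tied to microfibrils, only Adamtsl2 passed, with 97, 60, 52 and 63 in WT hearts and 84, 123, 115 and 135 in Mettl3 KO hearts (log2 fold change 0.76, limma adjusted p = 0.00331, SE 0.16). Mettl3 KO replicate 1 lay below WT replicate 1, and with the atrial covariate the value was 0.12 (limma adjusted p = 0.833). Adamts10, with the most reads, changed by 0.16 (limma adjusted p = 0.141).

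Of 6 tested proteases that can cleave elastin or activate such proteases, Mmp2 and Ctsk rose. Mmp2 (gelatinase A) gave 299, 254, 313 and 276 in WT hearts and 441, 340, 407 and 402 in Mettl3 KO hearts (log2 fold change 0.47, limma adjusted p = 0.000273, SE 0.08). Ctsk (cathepsin K) rose by 0.64 (limma adjusted p = 0.0139, SE 0.16), but leaving out WT replicate 4 (limma adjusted p = 0.0538) or Mettl3 KO replicate 4 (limma adjusted p = 0.0780) ended the call. Against the fibroblast marker mean neither passed, Mmp2 at 0.17 (limma adjusted p = 0.0741) and Ctsk at 0.34 (limma adjusted p = 0.103), and Ctsk was lost with the atrial covariate too (0.64, limma adjusted p = 0.208).

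**Figure D3:**
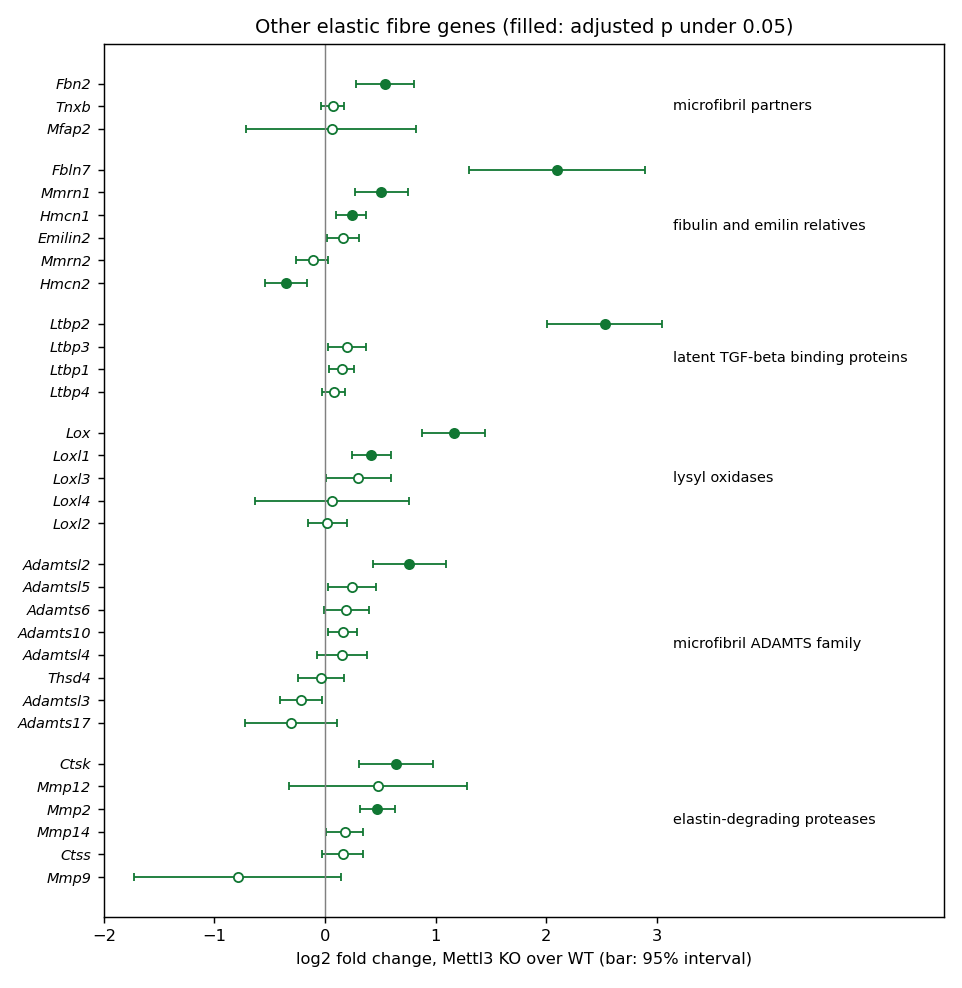
Log2 fold change of Mettl3 KO over WT (x axis, bars 95% interval) of the 32 tested genes by subgroup, filled where the limma adjusted p was under 0.05. The filled points are on the right of 0 for 10 genes, led by Ltbp2 at 2.53 and Fbln7 at 2.10, and on the left for Hmcn2 at -0.35.

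Fibroblast markers moved in the same direction as the 5 genes that rose. In bulk hearts, more cells of a type and more RNA per cell cannot be told apart. Of 9 fibroblast markers (Pdgfra, Tcf21, Dpt, Lum, Dcn, Gsn, Ddr2, Col1a1 and Col1a2), 7 rose and 0 fell, with a median log2 fold change of 0.33. Their summed level was 4162 to 4573 in WT and 5102 to 5405 in Mettl3 KO libraries, and none was at 0. Tcf21 (log2 fold change 0.28, limma adjusted p = 0.286) and Ddr2 (0.00, limma adjusted p = 1.00) did not pass. Of 8 markers of activated fibroblasts, 5 rose (Postn, Cilp, Comp, Tnc and Thbs4), with a list median of 1.04 and summed levels of 685 to 877 in WT and 1198 to 1675 in Mettl3 KO libraries. Acta2, Fap and Cthrc1 did not pass, and Cthrc1 was at 0 in WT replicate 2.

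Each gene was therefore also expressed against the mean log2 level of the 9 fibroblast markers in the same library, which was 0.31 higher in Mettl3 KO hearts and so shifts the median of all genes to -0.31. Among these markers Dpt, Lum, Dcn, Col1a1 and Col1a2 encode matrix proteins themselves, with log2 fold changes of 0.30 to 0.48. Pdgfra, Tcf21, Gsn and Ddr2 changed by 0.33, 0.28, 0.16 and 0.00. The scale thus sets matrix genes in part against other matrix genes and does not measure fibroblast number. On this scale 1.17% of all genes were called as higher and 38.2% as lower. Mfap4 (0.83, limma adjusted p = 0.000540), Mfap5 (0.37, limma adjusted p = 0.0153) and Fbln1 (0.28, limma adjusted p = 0.00375) remained higher in Mettl3 KO hearts. Eln (0.08, 95% interval -0.09 to 0.25, limma adjusted p = 0.448) and Fbln5 (0.14, 95% interval -0.07 to 0.36, limma adjusted p = 0.278) did not pass. Against fibroblast markers, Fbn1 (-0.24, limma adjusted p = 0.000585), Fbln2 (-0.21, limma adjusted p = 0.0163) and Emilin1 (-0.25, limma adjusted p = 0.0293) were lower, a direction shared by 38.2% of all genes on that scale.

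**Figure D4:**
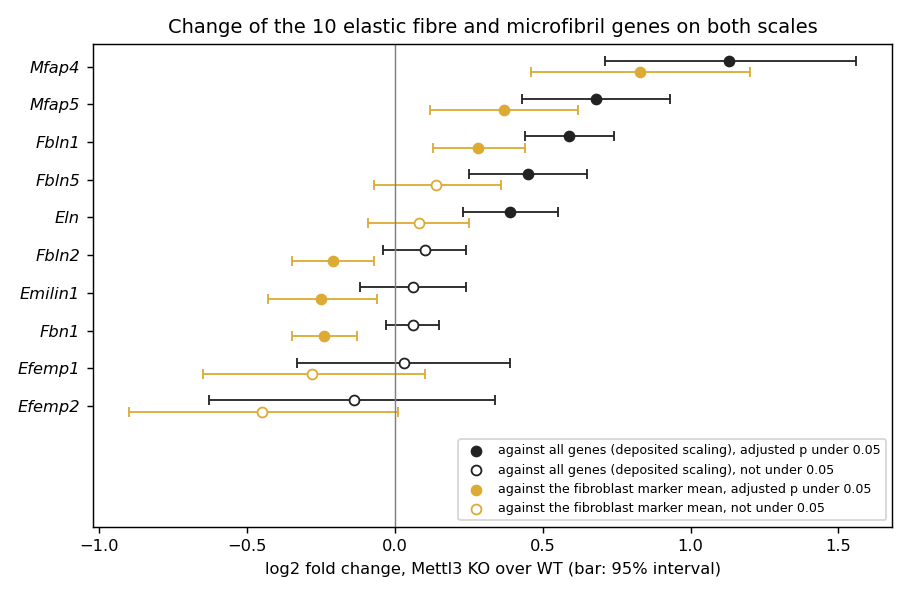
Log2 fold change of Mettl3 KO over WT (x axis, bars 95% interval) of the 10 genes on the deposited scale (black) and against the mean log2 level of 9 fibroblast markers in the same library (yellow), filled where the limma adjusted p was under 0.05. Mfap4, Mfap5 and Fbln1 are filled and above 0 on both scales, while Fbn1, Fbln2 and Emilin1 are filled and below 0 on the yellow scale only.

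Cells of the vessel wall also make elastic fibres. Of 7 smooth muscle markers (among them Des and Myocd, which cardiomyocytes also make) none passed, with a median of 0.17 and summed levels of 2711 to 2893 in WT and 2740 to 2961 in Mettl3 KO libraries. At an unadjusted p under 0.05, Myh11, Lmod1 and Tagln were higher and Smtn lower. Of 6 pericyte markers, Abcc9 and Notch3 were lower and the others did not pass (median -0.14, sums 4564 to 4846 and 4053 to 4330). Of 8 endothelial markers, Cdh5, Kdr and Tie1 were lower and Vwf was higher (median -0.16, sums 4825 to 4975 and 4407 to 4786). Of 4 endocardial markers, Npr3 was higher (median 0.28, sums 746 to 808 and 962 to 1102), and of 6 mesothelial markers, Upk3b and Lrrn4 (median 1.11, sums 75 to 120 and 100 to 161). Macrophage markers had 1 of 8 lower, Cd163 (median -0.03, sums 1233 to 1533 and 1256 to 1471). None of the 4 tested adipocyte markers (median 0.53, although the mean sum was 85.3 in WT and 69.5 in Mettl3 KO libraries), 5 blood cell markers (median -0.33, sums 174 to 285 and 123 to 199) or 8 cardiomyocyte markers (median 0.05, sums 81726 to 88339 and 80750 to 90513) passed. At an unadjusted p under 0.05 these were Plin1 (higher) and Pparg (lower), Hbb-bs and Hbb-bt (lower), and Tnnt2 (higher). Adipoq, Plin1, Cfd and Upk1b were at 0 in at least 1 library. The part of these cell types in the result was not tested.

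Atrial genes varied within the Mettl3 KO group. Of 6 atrial markers, 5 were higher (median 1.74, sums 2254 to 2451 and 2763 to 3397). Bmp10, which marks atrial muscle, was not counted in any WT library or in Mettl3 KO replicate 1 and was at 158 to 358 in the other Mettl3 KO libraries, and Myl7 and Sln were at 0 in WT replicate 3. Nppa and Pam did not follow Bmp10. In Mettl3 KO replicate 1 they were at 452 and 1840, above the 175 to 292 and 1463 to 1539 of the WT libraries. The list and its mean thus do not measure atrial tissue alone. In Mettl3 KO replicate 1 the mean log2 level of the atrial markers was 6.08, near the 6.03 of WT replicate 1, and its values of Eln (316), Fbln1 (354), Fbln5 (132), Mfap4 (91) and Mfap5 (96) were each above all WT libraries. That is 1 library, and the part of atrial tissue in the result was not tested. With the atrial mean as a covariate, 2 of the 10 genes passed, Fbln1 and Mfap4. Eln (0.32, limma adjusted p = 0.154), Fbln5 (0.41, limma adjusted p = 0.170) and Mfap5 (0.52, limma adjusted p = 0.151) then did not pass, beside 0.39, 0.45 and 0.68 without the covariate, and the count over all genes fell from 1607 to 857.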

How the data were processed

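The 8 RNA-seq libraries of mouse heart (4 WT, 4 Mettl3 KO) had been made from 1 µg of total RNA with a stranded kit and read as 72-nt single ends. Per the study's methods, the authors used Trimmomatic 0.39, STAR 2.7.11a (mm39, Ensembl release 109), Picard 3.1.1 to drop duplicates, and featureCounts 2.0.4 by strand over exons, without multi-mapping, ribosomal or mitochondrial reads or reads over several genes. No gene overlaps one of the 10 on the same strand. The deposited values are a score: counts that the authors normalized with DESeq2 1.36.0 and rounded, not raw counts, so count models were not run. Dropping duplicates of single-end reads lowers short, abundant transcripts most.

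The 20313 genes whose values averaged 1 or more entered the fit (2732 did not), made on the log2(value + 1) scale by limma 3.58.1 under R 4.3.3 (mean-variance trend, genotype only, two-sided, Benjamini-Hochberg over all genes tested). Fold changes on this scale understate those of low genes. The reads behind a library were estimated from values skipped or doubled by rounding. Both scripts were tested on simulated data. At a log2 change of 1 and a dispersion of 0.005, the fit recovered 62.5% of 200 changed genes. Among those with a mean of 20 or more it recovered 95.7%. Smaller changes were not simulated. Single ratios used exact permutation of the genotype labels.

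Members, gene lists and alternatives were chosen with earlier results of these data known. Named genes were the 10 members, every called gene and the gene with the most reads of each pathway subgroup, Mettl3 and Esr1, and the 3 nearest profiles to Eln and Fbn1. Single marker genes were named beside their list. Lep was not tested. Coordinates are those of the table (mm39), promoter coordinates those of GRCm38.p6. Alternatives were other filters (none, or a mean of at least 10), pseudocounts (0.5 and 5), scalings, limma voom, array weights, the replicate number as a block, the atrial or fibroblast marker mean, and each library left out in turn.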

Additional observations from a re-analysis of the deposited data

How the results depend on the processing

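Of 20 alternatives, 18 called 5 of the 10 genes, all higher, the fibroblast scale called 6 (3 higher, 3 lower), and all 8 that left out a library called 5. Fbln1 and Mfap4 passed in 20 of 20, Mfap5 in 19, and Eln and Fbln5 in 18. With the atrial marker mean as covariate the count of members was 2 and that of pathway genes 5, over 857 genes in all. The cause was not tested, although that covariate differs between the genotypes and takes 1 degree of freedom. Leaving out single libraries gave 8 to 13 pathway genes. Against the fibroblast marker mean 8003 genes were called, 238 higher and 7765 lower, and without Mettl3 KO replicate 3 there were 1019. Of the pathway genes called, Hmcn1 turned sign under both (-0.04 with the atrial mean, -0.07 against fibroblast markers). Against fibroblast markers 12 pathway genes were called, 4 higher and 8 lower. Among the 10 genes, signs turned only for those that had not passed: with the atrial mean, Efemp1 was at -0.14 and Efemp2 at 0.65, and against fibroblast markers, Fbn1 was at -0.24, Fbln2 at -0.21, Efemp1 at -0.28 and Emilin1 at -0.25. Without single libraries Efemp1 ranged from -0.10 to 0.12 and Emilin1 from -0.01 to 0.11. A replicate block gave calls for 5 of the 10 genes and 10 pathway genes (Hmcn2 dropped out). Same-numbered libraries had residual correlations of -0.0414 to 0.0878, under 0.1 in every pair, and 2 of 4 correlated best with their own number. So few pairs cannot show whether they share more than a number. At mean values near 30, as for Efemp1 and Efemp2, counting error is part of what limits the view, and Efemp2 varied by more than counting error in both groups. Levels per kb moved with the transcript length used, for Eln from a WT mean of 28.3 to 59.6, since its merged exons are 2.1 times as long as its longest transcript.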
